A study of Mus musculus with 2 samples.

Results

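The genes described here build and move the actin cytoskeleton: actins, tropomyosins, calponins, transgelins, caldesmon, myosins, subunits of the Arp2/3 complex, cofilin, profilin and the transcription factor Srf. They were chosen by gene symbol, and 45 of the 12707 genes in the authors' table fitted the rule. RNA came from live CD45-negative cells sorted from Py8119 tumours, a mouse mammary tumour line of mesenchymal character. The injected tumour cells carried wild-type Mtdh (metadherin) in both arms. There were 2 libraries, 1 from tumours grown in Mtdh wild-type hosts (26069375 reads) and 1 from tumours grown in Mtdh knockout hosts (23381849 reads), so only the host genotype differed by label. They are called the wild-type-host sample and the knockout-host sample, and paired values give the former first. Of the strain, age and sex of the hosts, the type of the knockout allele and the number of tumours pooled per library, nothing is given in the sources used here. The gate removes leukocytes and keeps tumour cells together with any fibroblasts, pericytes or endothelial cells of the host. Of the mesenchymal genes known from this line all 8 were measured, at a summed 9041 and 8097 RPM (RPM is reads scaled to a common library total). Those with the most reads were Fn1, at 4744 and 4070 RPM, and Vim, which encodes vimentin, at 3170 and 2907 RPM. Of 12 leukocyte genes 9 were measured and summed to 32.2 and 35.9 RPM. Lcp1 (232 and 197) and Csf1r (198 and 195) had the most reads of these, and Ptprc, which encodes CD45, had 46 and 64 reads.

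Actin filaments grow from monomers that profilin loads and cofilin removes. The Arp2/3 complex, whose smaller parts the Arpc genes encode, starts new branches. Tropomyosins coat unbranched filaments and decide which myosins may bind. Non-muscle myosin II is built from heavy chains such as Myh9 and Myh10, essential light chains such as Myl6 and regulatory light chains such as Myl12a, Myl12b and Myl9, and it pulls filaments together once the regulatory chain is phosphorylated by kinases such as Mylk. Smooth muscle cells, pericytes and activated fibroblasts add Acta2, Actg2 and Tagln to this machinery. Srf, with its actin-sensing cofactors of the MRTF family, switches on many of these genes through a DNA element named the CArG box.

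Promoter sequences of the members were searched for the CArG box (CC, then 6 letters that are each A or T, then GG, a pattern that reads the same on both strands), because Srf is itself a member. RefSeq windows of the mouse build GRCm38.p6, from 250 bases before to 50 after the annotated start, were found for 39 of the 45 members. Actb, Actg2, Arpc5l, Myo1d and Tagln were among those with no entry. A CArG box was present in 7 of the 39 members (17.9%) and in 159 of the 10034 genes of the table that had a window (1.58%). Over all 32851 windows the share was 1.63%. The stretches around each match, all before the start site and with the CArG box in capitals, are the following.
Srf (chr17:46556190-46556269, minus strand): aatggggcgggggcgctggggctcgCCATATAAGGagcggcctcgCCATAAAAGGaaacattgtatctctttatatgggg
Actg1 (chr11:120348551-120348610, minus strand): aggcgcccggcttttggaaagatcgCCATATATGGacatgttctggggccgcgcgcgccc
Cnn2 (chr10:79988519-79988578, plus strand): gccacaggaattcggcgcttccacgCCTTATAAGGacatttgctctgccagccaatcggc
Myl6 (chr10:128493025-128493084, minus strand): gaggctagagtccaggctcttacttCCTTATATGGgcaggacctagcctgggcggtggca
Myl9 (chr2:156775278-156775337, plus strand): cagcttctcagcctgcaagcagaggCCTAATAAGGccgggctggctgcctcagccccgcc
Myo1e (chr9:70207293-70207349, plus strand): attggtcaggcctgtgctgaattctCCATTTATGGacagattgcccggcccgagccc
Arpc4 (chr6:113377863-113377897, plus strand): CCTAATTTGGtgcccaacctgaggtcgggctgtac
The Srf promoter held 2 boxes, which began 82 and 62 bases before the start. In the others the box began 90 bases before the start of Actg1, 56 before Cnn2, 50 before Myl6, 161 before Myl9, 32 before Myo1e and 250 before Arpc4. A match describes letters and is not evidence of binding, and a window with no match says nothing about Srf at that gene.

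The contractile genes as a group differed little between the libraries. Their summed reads made up 2.66% of the wild-type-host sample and 2.62% of the knockout-host sample. The ratio of the sums was 0.984, and it lay on the other side of 1 when libraries were scaled by a trimmed mean of ratios (TMM, 1.02). Actb and Actg1 alone made up 1.64% and 1.61% of the libraries, at ratios of 0.844 and 1.17. The sum therefore mostly reflects these genes, which went opposite ways. Of the 42 members with 100 or more reads over both libraries and reads in each, 1 was at least 2-fold higher in the knockout-host sample and 2 were at least 2-fold lower. These are 2.38% and 4.76% of the members, against 8.39% and 11.3% of the 10647 genes counted in the same way. The members higher or lower were Myl9, Acta2 and Mylk, each with under 1000 reads. Among the 11 members with 100 to 1000 reads, 1 higher and 2 lower stand against 17.5% and 23.4% of all genes at that depth, which is near the background. Among the 31 members with 1000 reads or more, 0 were 2-fold higher and 0 were 2-fold lower, against 2.84% and 3.92% of all genes at that depth. The median log2 ratio of the 42 members was -0.11 (quartiles -0.29 and 0.20), beside -0.06 (quartiles -0.47 and 0.32) over all genes.

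**Figure D1:**
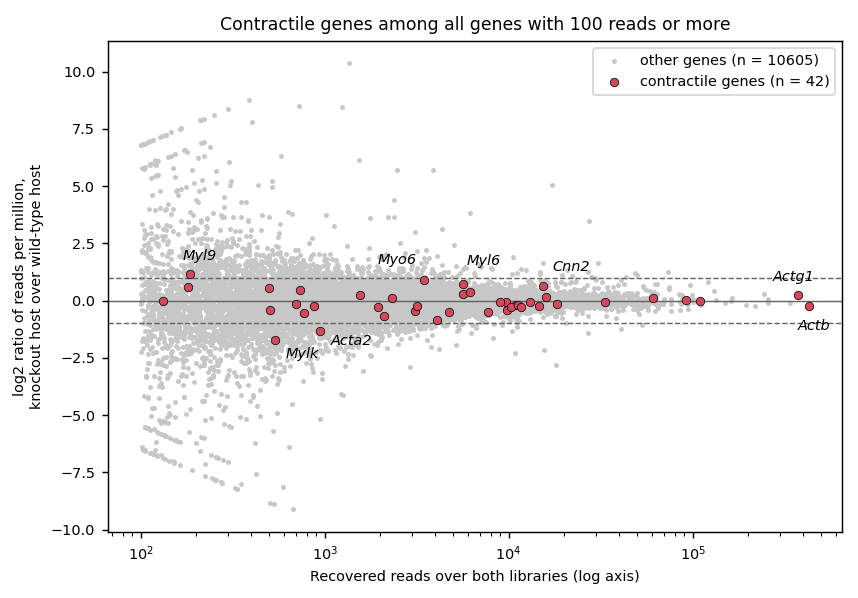
Each point is a gene with 100 or more recovered reads; the horizontal axis gives its reads over both libraries and the vertical axis the log2 ratio of RPM, knockout host over wild-type host, with dashed lines at a 2-fold ratio. The 42 contractile genes lie within the cloud of the other genes, and the 3 beyond a dashed line (Myl9, Acta2 and Mylk) have few reads, where the cloud is widest.

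On the scale the authors deposited, log2(FPKM + 1), 30 members averaged 1 or more over the pair of libraries. Of these, 0 were higher by 1 or more and 0 were lower, beside 2.31% and 2.64% of the 6057 genes with such a mean. The median difference of the 30 members was -0.09, and that of the 6057 genes was -0.03. The authors' FPKM divides by the whole genomic span of a gene, introns included, which lowers the values of genes with long introns, and 8 of the 13 unconventional myosins fell under the filter. Reads recovered from the same values are therefore used for the single genes below, with 95% counting intervals of the ratio in RPM. There was 1 library per host genotype, so no difference has a replicate check or a p-value and each describes this pair of libraries. Counting intervals are no substitute: they left out a ratio of 1 for 39 of the 42 members and for 82.2% of all 10647 genes. Levels of different genes are compared only per kilobase of annotated exons, as RPKM (RPM divided by the kilobases of exons). The recovered reads could not be separated into exons and introns, and any intron reads among them raise the RPKM of a gene.

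**Figure D2:**
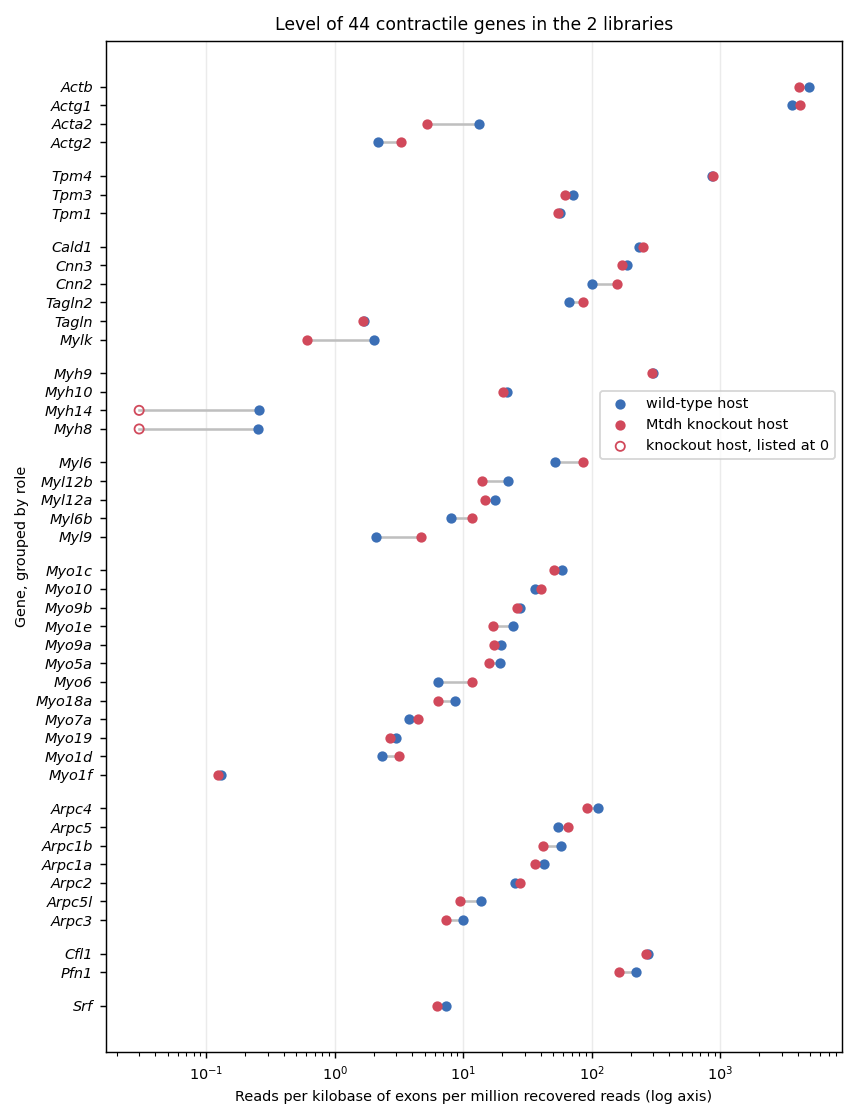
Level of 44 members in RPKM over annotated exons (log axis), grouped by role, with blue points for the wild-type-host sample and red points for the knockout-host sample. Actb and Actg1 stand at 3585 to 4883 RPKM, far to the right of Acta2 and Actg2 at 2.16 to 13.1 RPKM, and open circles mark Myh14 and Myh8, listed at 0 in 1 library.

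The cytoplasmic actins made up nearly all actin reads in both libraries. Actb (beta-actin, chromosome 5, 142888870 to 142892510, minus strand, mm39) had 244430 reads in the wild-type-host sample and 185042 in the other. Its level was 9376 and 7914 RPM, a ratio of 0.844 (95% counting interval 0.839 to 0.849). Actg1 (gamma-actin, chromosome 11, 120236516 to 120239369, minus strand, mm39) went the other way, with 182429 and 191634 reads, 6998 and 8196 RPM and a ratio of 1.17 (1.16 to 1.18). Per kilobase of exons Actb was the more abundant in the wild-type-host sample (4883 against 3585 RPKM), and both were nearly equal in the knockout-host sample (4122 against 4199 RPKM). The share of Actb in their joint reads was 57.3% (exact binomial 95% interval 57.1 to 57.4) and 49.1% (49.0 to 49.3). The joint level of both was 16374 and 16110 RPM, a ratio of 0.984 that became 1.02 under TMM scaling.

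Actb and Actg1 encode nearly the same protein, so the assignment of reads between them matters. Their coding sequences, taken from GENCODE M21, are each 1128 bases long and identical at 88.7% of positions, with no shared run longer than 62 bases. The first 60 coding bases are shown because they hold the codons in which these proteins are known to differ; capitals mark the 9 positions at which the sequences differ.
Actb: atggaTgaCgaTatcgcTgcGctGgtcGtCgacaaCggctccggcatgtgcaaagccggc
Actg1: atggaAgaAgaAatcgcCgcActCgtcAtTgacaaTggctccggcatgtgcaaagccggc
Processed copies of both genes also exist in the genome, and how the authors' counting treated reads that map to several places is not stated in the sources used. The opposite directions of this pair are uncertain to that extent.

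The smooth muscle actin Acta2 was lower in the knockout-host sample, and Actg2 was not. Acta2 (chromosome 19, 34218490 to 34232991, minus strand, mm39), the actin of smooth muscle, pericytes and activated fibroblasts, had 697 reads in the wild-type-host sample and 249 in the other, at 26.7 and 10.6 RPM. The ratio was 0.398 (0.343 to 0.461), or 2.51-fold lower, and 7.40% of all genes with 100 or more reads had a ratio this low or lower. At 100 to 1000 reads, the depth of Acta2, 23.4% of all genes were 2-fold lower. The deposited log2 values of Acta2 were 1.51 and 0.79, a difference of -0.71 that does not reach 1. Actg2, the enteric smooth muscle actin, had 77 and 105 reads, a ratio of 1.52 (1.12 to 2.07). Together both smooth muscle actins gave 0.181% and 0.0939% of all reads of the 4 actins.

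The summed level of the pericyte markers and of the fibroblast markers was also lower in that library, though not every pericyte marker was. Of 16 pericyte and smooth muscle markers 8 were measured, and they summed to 430.3 RPM in the wild-type-host sample and 105.0 in the other, mostly from Pdgfrb. Among the 4 with 100 or more reads and reads in each library, 3 had a ratio below 1: Pdgfrb, the PDGF receptor of pericytes and fibroblasts, at 353.1 and 72.3 RPM, Notch3 at 36.4 and 8.04 RPM, and Smtn at 20.9 and 17.5 RPM. The fourth, Synm, was higher, with 70 and 93 reads (1.48, 1.07 to 2.05). Cspg4 (190 reads) and Synpo2 (213 reads) were listed at 0 in the knockout-host sample. Of the 1598 genes with 100 to 300 reads over both libraries, 18.2% had 5 reads or fewer in 1 of them. Under 100 reads, Mcam had 44 and 18 while Abcc9 had 1 and 56. The markers Rgs5, Des, Kcnj8, Higd1b, Cox4i2, Lmod1, Myocd and Casq2 were not analysed here. Of 12 fibroblast markers 11 were measured, summing to 2730 and 1349 RPM. All 8 with 100 or more reads had a ratio below 1, but to unequal degrees, and 4 of them were 2-fold lower. Among all 10647 genes counted in the same way, 5796 were below 1 and 11.3% were 2-fold lower. At 100 to 1000 reads 23.4% were 2-fold lower, and at 1000 or more 3.92%. These shares also stand beside the pericyte markers. The 4 were the collagens Col1a1 (618.0 and 88.1 RPM) and Col3a1 (1136 and 473.7 RPM), Dcn (784 and 158 reads) and Dpt (322 and 44 reads). Below 100 reads, Fap had 91 and 1, Thy1 45 and 3 and Pi16 38 and 1. Serpinf1 was at a ratio of 0.664 and Col1a2 at 0.652. Ogn, with 15509 and 11476 reads, was at 0.825. Pdgfra, with 5834 and 5056 reads, was nearly level at 0.966. Its counting interval held 1, and its ratio passed to the other side of 1 under TMM scaling. In bulk RNA, fewer cells of a type and less RNA per cell cannot be told apart. The part of pericytes and fibroblasts in the lower Acta2 was not tested. The tumour cells are themselves mesenchymal, and whether the pericyte and fibroblast marker reads came from them or from host cells was not tested. The muscle, myoepithelial, endothelial, platelet and erythroid lists, each measured only in part, summed to between 0 and 24.1 RPM in either library. Their part in the lower Acta2 was not tested either. Of 15 skeletal muscle genes 4 were measured, at 13.2 and 6.97 RPM, with Ttn at 285 and 125 reads and Ryr1, Neb and Tnni2 each listed at 0 in 1 library. The cardiac gene Tnni3 had 0 and 35 reads. Of 6 myoepithelial genes 3 were measured, at 13.2 and 4.62 RPM, and Lgals7, Trp63 and Oxtr were each listed at 0 in 1 library. Endothelial genes gave 24.1 and 17.0 RPM over 5 of 11 and went both ways: Plvap had 348 and 58 reads, Ecscr 145 and 59, Pecam1 129 and 128, Cdh5 1 and 146, and Vwf 5 and 7. Platelet genes gave 8.74 and 3.58 RPM over 4 of 5, with Gp1bb at 127 and 18 reads and Itga2b at 25 and 53, and the erythroid gene Alas2 gave 3.72 and 2.31 RPM.

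The joint level of the tropomyosins was nearly equal between the libraries, and Tpm4 led them, while Tpm3 was somewhat lower in the knockout-host sample. Tpm4, a short tropomyosin of stress fibres, was at 867.9 RPKM in the wild-type-host sample and 874.4 in the other. Its reads were 48146 and 43507, a ratio of 1.01 (0.995 to 1.02). Tpm1, at 56.7 and 54.4 RPKM, had 7069 and 6079 reads (ratio 0.959, 0.926 to 0.992), which passed to the other side of 1 when ratios were centred on the median of all genes. Tpm3, at 71.1 and 62.2 RPKM, had 6160 and 4832 reads (0.874, 0.842 to 0.908). Tpm4 gave 78.4% and 79.9% of the reads of these 3 genes. Their joint level was 2354 and 2327 RPM, a ratio of 0.989 that was 1.03 under TMM scaling.

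Among the proteins that decorate actin filaments, calponin 2 was higher and the light chain kinase lower in the knockout-host sample. Cnn2, a calponin of non-muscle cells that restrains myosin on actin, had 6424 reads in the wild-type-host sample and 8977 in the other, at 246.4 and 383.9 RPM. The ratio was 1.56 (1.51 to 1.61). Its relative Cnn3 had 10053 and 8217 reads (0.911, 0.885 to 0.938), so that the share of Cnn2 in the pair was 39.0% and 52.2%. Tagln2, the transgelin of non-smooth-muscle cells, was at 109.4 and 140.9 RPM (1.29, 1.22 to 1.35), and Cald1, caldesmon, at 1191 and 1278 RPM (1.07, 1.06 to 1.09). The smooth muscle transgelin Tagln was scarce in both libraries, with 70.5 and 62 reads and a ratio of 0.981 (0.690 to 1.41), above 1 under TMM scaling. At 1.70 and 1.66 RPKM it lay far below Tagln2 at 66.3 and 85.4 RPKM.

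Mylk (chromosome 16, 34565580 to 34822791, plus strand, mm39), the kinase that phosphorylates regulatory light chains, had 424 reads in the wild-type-host sample and 115 in the other. Its level was 16.3 and 4.92 RPM, a ratio of 0.302 (0.244 to 0.372), or 3.31-fold lower, and 4.69% of all genes with 100 or more reads had a ratio this low or lower. At 100 to 1000 reads, the depth of Mylk, 23.4% of all genes were 2-fold lower. On the deposited scale the difference was only -0.06, since Mylk spans 257211 bases and its FPKM was 0.0632 and 0.0191. Mylk is abundant in smooth muscle, and the marker sums given beside Acta2 moved in the same direction. Their part in the lower Mylk was not tested.

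Non-muscle myosin II heavy chains were level. Myh9, the heavy chain of non-muscle myosin IIA, was at 300.1 and 294.0 RPKM, with 58147 and 51097 reads and a ratio of 0.980 (0.968 to 0.991), which passed to the other side of 1 under TMM scaling. Myh10, the heavy chain of IIB, was at 21.7 and 20.5 RPKM with a ratio of 0.946 (0.907 to 0.986). Myh9 gave 92.2% and 92.5% of the reads of the pair, a near-constant split. Myh14, the heavy chain of IIC, had 44 reads in the wild-type-host sample and Myh8, of perinatal skeletal muscle, had 52. Both were listed at 0 in the knockout-host sample and both lay under 100 reads.

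Ratios of the light chains lay farther from 1 than those of Myh9 and Myh10. Both essential chains and the regulatory chain Myl9 were higher in the knockout-host sample, and the regulatory chains Myl12a and Myl12b were lower. Myl6, the essential light chain of non-muscle myosin II, had 2289 reads in the wild-type-host sample and 3352 in the other, at 87.8 and 143.4 RPM. The ratio was 1.63 (1.55 to 1.72). Myl6b, a related essential chain, had 215 and 281 reads (1.46, 1.22 to 1.75), and its share of the pair was 8.59% and 7.73%, with overlapping intervals (7.52 to 9.75 and 6.89 to 8.65). These genes are neighbours on the same strand of chromosome 10, 11 bases apart in the table, so reads that run across the boundary could count for either.

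The regulatory light chains Myl12a and Myl12b were lower in the knockout-host sample. Myl12a had 1119 and 831.7 reads (ratio 0.829, 0.757 to 0.908) and Myl12b had 1338 and 757 (0.631, 0.576 to 0.690). They too are neighbours on 1 strand, 2765 bases apart on chromosome 17. Their coding sequences of 519 bases are identical at 96.5% of positions and share a run of 105 bases. The first 60 coding bases, with the 4 differing positions in capitals, show how little separates them.
Myl12a: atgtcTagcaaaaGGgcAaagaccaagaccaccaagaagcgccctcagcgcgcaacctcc
Myl12b: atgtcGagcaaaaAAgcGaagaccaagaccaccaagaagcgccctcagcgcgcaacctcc
The split between them is therefore uncertain. The count of Myl12a in the knockout-host sample was fractional and that of Myl12b whole. Their sum does not depend on the split: 94.2 and 67.9 RPM, a ratio of 0.721 (0.677 to 0.768), and 0.748 under TMM scaling.

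Myl9 (chromosome 2, 156617340 to 156623579, plus strand, mm39), the regulatory chain of smooth muscle and of contractile non-muscle cells, was higher, from a low level. It had 62 reads in the wild-type-host sample and 124 in the other, at 2.38 and 5.30 RPM, a ratio of 2.23 (1.63 to 3.08). A ratio this low or lower was found for 93.3% of all genes with 100 or more reads. At 100 to 1000 reads, the depth of Myl9, 17.5% of all genes were 2-fold higher. The share of Myl9 in the reads of the 3 regulatory chains was 2.46% (1.89 to 3.14) and 7.24% (6.06 to 8.57). Of the smooth muscle genes among the members, Myl9 and Actg2 were thus higher, Acta2 and Mylk lower and Tagln nearly level. It rests on 186 reads, and among the 1598 genes with 100 to 300 reads over both libraries, 18.2% had 5 reads or fewer in 1 of them.

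**Figure D3:**
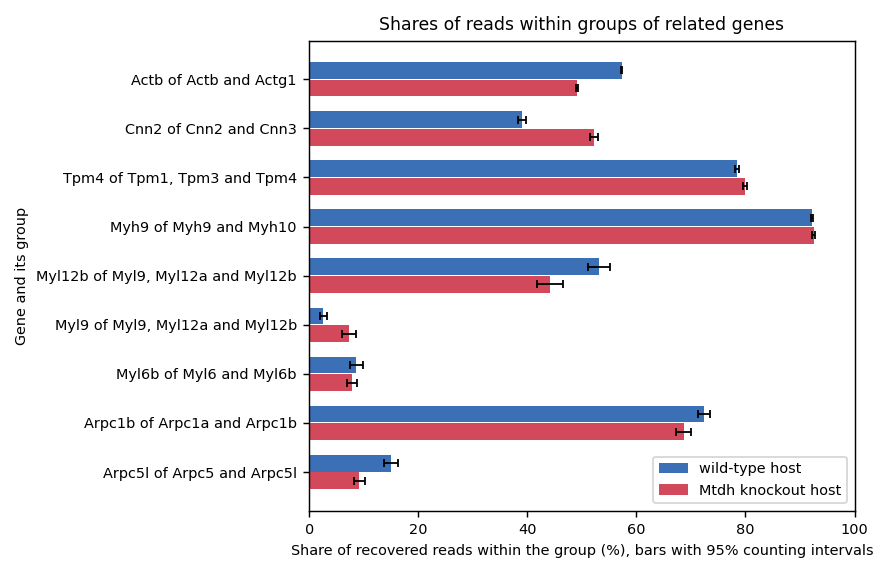
Share of recovered reads held by 1 gene within its group of related genes, in percent, with blue bars for the wild-type-host sample, red bars for the knockout-host sample and error bars for exact binomial 95% intervals, which cover counting error only. The shares of Actb (57.3% and 49.1%), Cnn2 (39.0% and 52.2%) and Arpc5l (15.0% and 9.15%) differ between the bars, and that of Myh9 (92.2% and 92.5%) hardly does.

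Unconventional myosins, which carry cargo or tether membranes to actin instead of forming filaments, spread in both directions. Of the 12 with 100 or more reads, 4 had a ratio above 1 and 8 below, beside 4851 and 5796 of all 10647 genes. Of the 12, 0 were past 2-fold, beside 8.39% higher and 11.3% lower of all genes. Most of the 12 had 1000 or more reads, where these shares were 2.84% and 3.92%. The joint level of the 13 unconventional myosins was 1688 and 1550 RPM. Myo6, the myosin that walks toward the minus end of filaments and serves endocytosis, was the highest in ratio, with 1314 and 2165 reads and 1.84 (1.71 to 1.97). Myo1d (1.36), Myo7a (1.17), known from sensory hair cells, and Myo10 (1.11), a motor of filopodia with 8004 and 7983 reads, were the others above 1.

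Class I myosins link membranes to actin, and they lay on both sides of 1. Myo1e had 2920 and 1831 reads, a ratio of 0.699 (0.659 to 0.741). Myo1c was at 0.856 (0.829 to 0.885), and Myo1d was above 1. Myo18a, a myosin of the Golgi, was at 0.739 and Myo5a, a transporter of vesicles, at 0.830. Myo9a and Myo9b, single-headed motors of one class, were at 0.874 and 0.954, and the mitochondrial myosin Myo19 was at 0.891 (0.764 to 1.04). Myo1f, a myosin of leukocytes, had 13 and 11 reads. Per kilobase of exons Myo1c led in both libraries (58.9 and 50.4 RPKM), followed by Myo10 (36.0 and 40.0 RPKM).

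Arp2/3 subunits were somewhat lower in the knockout-host sample, with 5 of 7 below a ratio of 1 and 0 past 2-fold, where 5796 of all 10647 genes were below 1. At 1000 or more reads, the depth of most of these subunits, 2.84% of all genes were 2-fold higher and 3.92% lower. Their joint level was 687.6 and 594.0 RPM, a ratio of 0.864 (0.845 to 0.883), or 0.896 under TMM scaling. Arpc4 had 6759 and 4930 reads (0.813), Arpc1a 1797 and 1374 (0.852) and Arpc3 303 and 202 (0.743). Arpc2, which with Arpc4 forms the core of the complex, was at 1184 and 1154 reads (1.09, 1.001 to 1.18).

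Some of these subunits come in alternative forms, which are known to give complexes of different activity, and the splits were not the same in the 2 libraries. Arpc1b, known as the form that makes the more active complex, had 4701 and 3015 reads (0.715, 0.683 to 0.749). Its share of Arpc1a and Arpc1b was 72.3% (71.2 to 73.4) and 68.7% (67.3 to 70.1). Arpc5 was higher, with 2705 and 2920 reads (1.20, 1.14 to 1.27), and its alternative Arpc5l was lower, with 477 and 293.5 reads (0.686, 0.592 to 0.796). The share of Arpc5l in that pair was 15.0% (13.8 to 16.3) and 9.15% (8.17 to 10.2). Arpc1b overlaps Pdap1 and Arpc5l overlaps Rpl35, both on the opposite strand, and Arpc4 overlaps Ttll3 on the same strand. Among the other members Tagln, Cfl1, Myo18a, Myo19 and Myo9b overlap a gene on the opposite strand. How the authors' counting handled strand is not stated in the sources used, so reads of these members may include some from the overlapping genes. Actr2 and Actr3, which encode the actin-related proteins that give the complex its name and stand outside the member rule, were at ratios of 1.15 and 0.997.

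**Figure D4:**
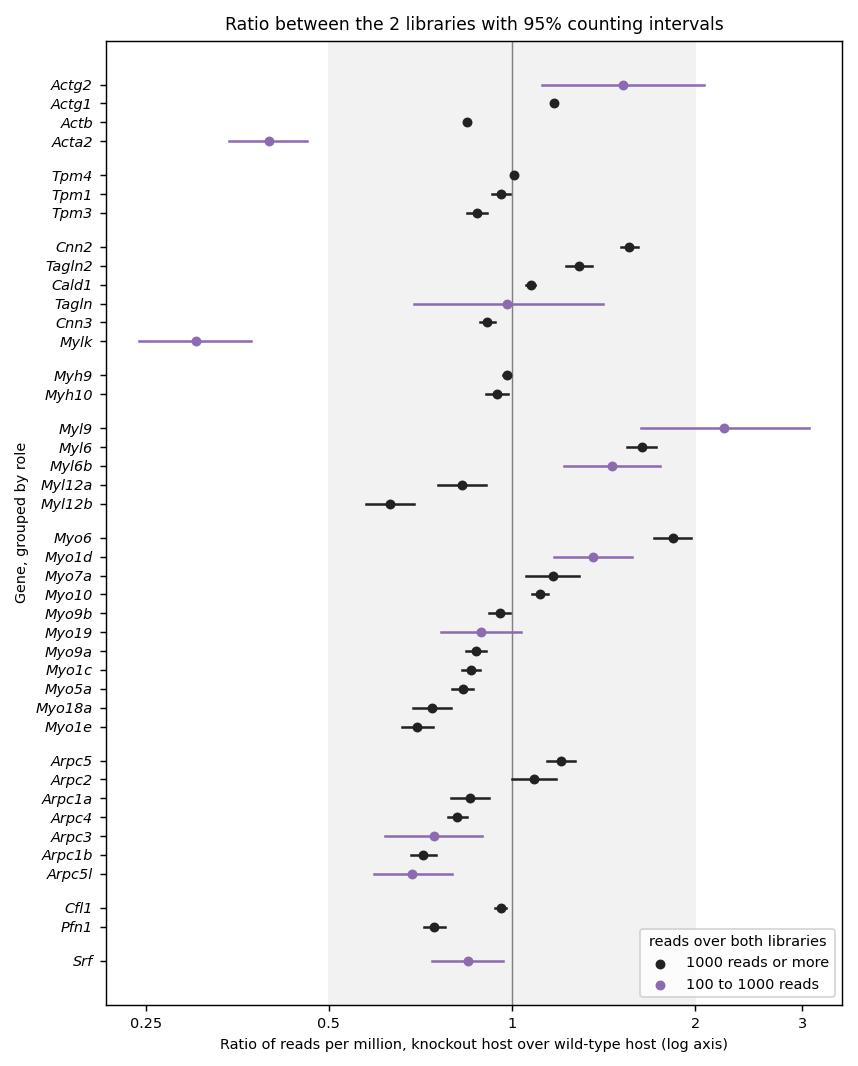
Ratio of RPM, knockout host over wild-type host (log axis), for 41 members with 100 or more reads, grouped by role and sorted within each role; bars are 95% counting intervals and the shaded band spans 0.5 to 2. Acta2 (0.398) and Mylk (0.302) lie left of the band and Myl9 (2.23) right of it, all 3 among the purple points with under 1000 reads.

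Of the monomer-handling proteins, profilin was lower and cofilin nearly level. Pfn1, which delivers actin monomers to growing ends, had 5855 reads in the wild-type-host sample and 3915 in the other, at 224.6 and 167.4 RPM. The ratio was 0.746 (0.716 to 0.776). Cfl1, which severs filaments, was at 688.6 and 659.5 RPM with a ratio of 0.958 (0.937 to 0.979), and it passed to the other side of 1 when ratios were centred on the median of all genes.

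Srf itself was slightly lower, and the members with a CArG box went both ways. Srf had 500 and 379 reads, at 19.2 and 16.2 RPM, a ratio of 0.845 (0.738 to 0.968). Of the 7 members whose promoter stretches are printed above, Myl9 (2.23), Myl6 (1.63), Cnn2 (1.56) and Actg1 (1.17) had a ratio above 1. The other 3, Srf (0.845), Arpc4 (0.813) and Myo1e (0.699), were below it. The median log2 ratio of the 7 was 0.23, beside -0.13 over the 29 members with a window, 100 reads or more and no box. The quartiles of the 7 were -0.27 and 0.67, and those of the 29 were -0.27 and 0.10. The median of the 7 is the value of Actg1, whose direction is uncertain for the reason given above. The difference between the medians was not tested.

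Genes that regulate the same machinery were examined through 7 lists, which held 103 measured genes beside the members. Of the 96 with 100 or more reads and reads in each library, 2 were 2-fold higher in the knockout-host sample (2.08%) and 5 were 2-fold lower (5.21%), beside 8.39% and 11.3% of all genes. Their median log2 ratio was 0.03. Most of the 96 had 1000 or more reads, a depth at which 2.84% and 3.92% of all genes were 2-fold higher and lower. The shares over all genes also stand beside the counts of the single lists given next. The SRF and MRTF target list had 2 higher and 1 lower of 19. Zyx, zyxin of focal adhesions and stress fibres, had 1409 and 2778 reads (2.20, 2.06 to 2.35), and its deposited log2 difference was 1.001. Csrp2 had 49 and 97 reads (2.21) and Nexn, nexilin, 378 and 154 (0.454). Synpo2, also of that list, is the gene listed at 0 that is given beside Acta2. The genes of that list with the most reads were Flna (1.05), which crosslinks filaments, and Vcl (1.27), vinculin of focal adhesions. The secreted matrix proteins Ccn1 (11514 and 6526 reads, 0.632) and Ccn2 (3075 and 2174 reads, 0.788) were below 1.

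Among the cofactors of Srf the ratios were unequal. Mrtfa had 1997 and 979 reads, a ratio of 0.547 (0.506 to 0.590), while Mrtfb had 1936 and 1744 (1.004, 0.941 to 1.07). Elk1, an ETS partner of Srf, had 519 and 234 reads (0.503, 0.429 to 0.588), just inside the 2-fold rule. Elk4 (1.03) and Scai (1.02), an inhibitor of the MRTF factors, had the most reads of this list. Of its 7 genes 0 passed the rule.

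In the list of light chain kinases and phosphatase, Ppp1r12c, a targeting subunit of myosin phosphatase, was the 1 of 8 past the rule, with 1198 and 529 reads (0.492, 0.444 to 0.546). The catalytic subunit Ppp1cb (0.848) and the main targeting subunit Ppp1r12a (1.13) had the most reads.

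Of the remaining lists, 0 of 17 further Arp2/3 genes and 0 of 11 formins passed the rule. Of all genes with 100 or more reads, 8.39% were higher and 11.3% lower, and with 1000 or more 2.84% and 3.92%. The formins with the most reads were Fmnl1 (1.22) and Diaph1 (1.03). Actin turnover and capping had 0 higher and 2 lower of 16: Pfn2, the second profilin, had 493 and 181 reads (0.409) and Tmod2, a tropomodulin, 180 and 6. Both lay at 100 to 1000 reads, where 23.4% of all genes were 2-fold lower. Capza1 (0.992), of capping protein, and Tmsb4x (1.30), which holds monomers, had the most reads of the turnover and capping list. Among 22 crosslinkers and membrane linkers 1 was lower. It was Fscn1, fascin of filopodial bundles, with 7699 and 2751 reads, a ratio of 0.398 (0.381 to 0.416) and a deposited log2 difference of -1.24. Pls3 (1.21) and Flna, named above, had the most reads in that list.

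**Figure D5:**
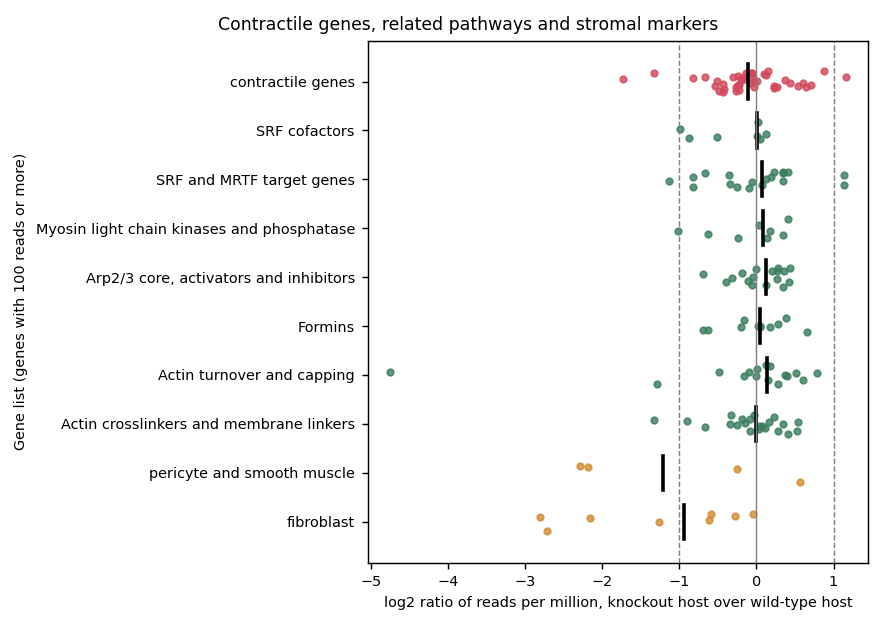
Each point is a gene with 100 or more reads, placed by its log2 ratio of RPM (knockout host over wild-type host), with the contractile members in red, 7 related lists in green, stromal marker lists in orange, black bars for medians and dashed lines at a 2-fold ratio. The medians of the contractile genes (-0.11) and of the green lists (-0.004 to 0.14) lie near 0, and those of the pericyte (-1.22, 4 genes) and fibroblast (-0.94, 8 genes) markers lie below.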

How the data were processed

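The authors deposited 1 table of log2(FPKM + 1) values with 1 column per library and a gene length column, and 12707 protein-coding genes. The submitters' processing notes name STAR 2.7.8a, Partek and the build mm39, and the sources used state no annotation release, strand or multimapping rule. The length equals stop minus start in 100% of rows, so FPKM is per genomic span. Low values lie on steps of equal size, each taken as 1 read, which puts the totals at 26069375 reads (wild-type host) and 23381849 (knockout host); 84.9% and 83.4% of values under 1000 reads were whole within 0.1 read. Of the 39 members whose digits resolve this, 10 had a fraction in 1 or both libraries.

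RPM used these totals. Ratio intervals are exact conditional binomial (Clopper-Pearson), shares exact binomial, both covering counting error only, since reads amplified by PCR and not tagged per molecule are not independent. Exon lengths and coding sequences came from GENCODE M21 by gene, promoters from RefSeq (GRCm38.p6); coordinates of genes are the table's. Python 3.11.15, scipy 1.17.1 and biopython 1.88 were used, and the recovery was tested on simulated data. Size rules were a log2 difference of 1 (mean of 1 or more) or a 2-fold RPM ratio (100 or more reads). Members with reads in 1 library only enter no ratio. Named are the members, 1 of which is not reported here; from pathway lists, the genes past a rule and the 2 with the most reads. The other pathway genes named (Mrtfa, Mrtfb, Elk1, Ccn1, Ccn2) and cell type markers beyond the 2 with the most reads were chosen after their values were seen. Members and lists were chosen with earlier results of these data known. Alternatives covered pseudocount, filters, scaling and genes with whole reads.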

Additional observations from a re-analysis of the deposited data

How the results depend on the processing

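With 1 library per host genotype, no library could be left out. No paired analysis was possible because each group has 1 library and the labels give no replicate numbers. On the deposited scale 0 members were higher and 0 lower by 1 or more under every alternative run (0.1 or 5 added in place of 1, no filter, a mean of 3 or more, centring, quantile normalization, whole reads only), except that with 0.1 added 1 member was lower (Acta2, -1.22). On the read scale the 1 member higher and 2 lower were found under each alternative except with 1000 reads or more, where 0 were higher and 0 lower, because all 3 have fewer reads. The median log2 ratio of the members, -0.11, lay between -0.08 and -0.04 under the alternatives tried (no filter, 1000 reads or more, TMM scaling, centring, whole reads only) and at -0.17 over the members with 100 to 1000 reads. TMM scaling moved all log2 ratios by 0.05 and centring by 0.06; TMM put Myh9 and Tagln, and centring Cfl1, Myh9, Tagln and Tpm1, on the other side of a ratio of 1. Depth limits Myl9, Actg2, Tagln, Myh14, Myh8 and Myo1f most. The bin of 100 to 1000 reads was added after the data were seen.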
